A study of Mus musculus with 6 samples.

Results

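The genes described here encode CTCF, the cohesin complex with its loader and regulators, 4 further looping factors and the Mediator complex, 46 genes in all. They were chosen by name: 11 CTCF and cohesin genes (Ctcf, Rad21, Smc1a, Smc3, Stag1, Stag2, Nipbl, Mau2, Wapl, Pds5a and Pds5b), 4 other looping factors (Yy1, Ldb1, Zfp143 and Maz) and 31 Mediator genes. A captured fragment, or bait, was assigned to a gene when it overlapped the gene's body extended by 2 kb on each side. By that rule 36 of the 46 genes held 43 of the 19083 baits that appear in the loop lists. These baits carried 142 of the 84105 listed same-chromosome loops, which were 87 distinct loops.

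Contacts had been measured by promoter-capture Micro-C, in which crosslinked chromatin is cut with micrococcal nuclease, nearby ends are ligated and fragments holding promoters are enriched. The cells were E14 mouse embryonic stem cells of a wild-type line, all transfected with esiRNA, a pool of short interfering RNAs, and harvested after 48 h. There were 3 groups of 2 libraries: Brg1KD (esiRNA against Smarca4, which encodes the esBAF ATPase BRG1), Ino80KD (esiRNA against Ino80, the ATPase of the INO80 remodeller) and Control (esiRNA against EGFP). By the submitters' batch label, batch 1 held replicate 1 of every group, batch 2 held the second Control library, and batch 3 held the second library of Brg1KD and of Ino80KD. The assay reads DNA contacts and no RNA, which leaves knockdown strength and cell type markers unchecked here. The labels do not say whether the 2 replicates of a group were grown as separate cultures, and the spread between them may be technical. With 2 libraries against 2, an exact two-sided permutation test cannot go below p = 0.33, and groups are described by whether their libraries overlap. The libraries listed 12313 and 13032 same-chromosome loops (Brg1KD), 14752 and 14172 (Ino80KD), and 15385 and 14451 (Control), each with a score of 5 or more.

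CTCF is a zinc finger protein that binds DNA at domain borders and many promoters, and cohesin is a ring-shaped complex that extrudes chromatin loops until it is stopped, often at CTCF. NIPBL and MAU2 load cohesin, WAPL releases it and the PDS5 proteins regulate both steps. Mediator passes signals of transcription factors at enhancers to RNA polymerase II, through head, middle and tail modules on the MED14 backbone and a separable kinase module. In embryonic stem cells Mediator and cohesin are known to share many enhancer and promoter sites.

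The promoters of 5 genes on which the results turn are given first, since these stretches lie on the captured fragments whose contacts follow. They are RefSeq sequences (GRCm38.p6), each 300 bases in the gene's own direction, with 250 bases before the start site and 50 after it. The capitals mark the letters GGGAGGG on either strand, the core of the motif that MAZ is known to bind. Ctcf lies at chr8:105636288-105636587 on the plus strand, Med26 at chr8:72548261-72548560 on the minus strand and Mau2 at chr8:70042685-70042984 on the minus strand. Med12 lies at chrX:101273841-101274140 on the plus strand and Med16 at chr10:79908889-79909188 on the minus strand.
Ctcf: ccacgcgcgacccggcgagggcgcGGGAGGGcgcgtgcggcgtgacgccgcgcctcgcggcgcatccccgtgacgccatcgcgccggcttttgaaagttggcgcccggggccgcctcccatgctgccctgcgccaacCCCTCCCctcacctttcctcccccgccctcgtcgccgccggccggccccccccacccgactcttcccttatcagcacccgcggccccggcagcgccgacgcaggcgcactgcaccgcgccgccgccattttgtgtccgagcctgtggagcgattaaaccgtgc
Med26: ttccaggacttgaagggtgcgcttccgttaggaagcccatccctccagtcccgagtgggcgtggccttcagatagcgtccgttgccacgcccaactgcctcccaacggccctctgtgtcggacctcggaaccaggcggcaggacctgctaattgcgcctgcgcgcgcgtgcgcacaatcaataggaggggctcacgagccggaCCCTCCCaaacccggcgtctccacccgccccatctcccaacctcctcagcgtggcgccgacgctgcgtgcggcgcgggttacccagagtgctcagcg
Mau2: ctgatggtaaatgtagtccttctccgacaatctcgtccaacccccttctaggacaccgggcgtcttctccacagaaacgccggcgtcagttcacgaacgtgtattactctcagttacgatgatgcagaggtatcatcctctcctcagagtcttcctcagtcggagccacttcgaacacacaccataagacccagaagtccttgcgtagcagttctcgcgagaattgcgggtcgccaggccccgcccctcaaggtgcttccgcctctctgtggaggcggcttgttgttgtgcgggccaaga
Med12: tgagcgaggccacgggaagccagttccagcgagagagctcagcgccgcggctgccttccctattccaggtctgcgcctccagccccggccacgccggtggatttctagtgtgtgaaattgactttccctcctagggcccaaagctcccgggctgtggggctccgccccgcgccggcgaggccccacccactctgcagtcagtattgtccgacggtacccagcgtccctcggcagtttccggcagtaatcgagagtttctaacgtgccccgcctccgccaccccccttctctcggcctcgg
Med16: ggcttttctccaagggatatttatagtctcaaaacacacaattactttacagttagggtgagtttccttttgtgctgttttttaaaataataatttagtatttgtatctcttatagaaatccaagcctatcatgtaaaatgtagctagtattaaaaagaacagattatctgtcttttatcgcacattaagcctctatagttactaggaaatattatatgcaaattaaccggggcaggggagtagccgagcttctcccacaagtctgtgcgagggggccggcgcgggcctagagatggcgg

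The MAZ letters were found in 11 of 48 promoters of the 39 genes that the RefSeq table matched, or 22.9%, against 22.0% of all 32851 promoters of the same length. Ctcf, Ldb1, Maz, Med13, Med21, Med26, Med29, Med6 and Pds5b held them. The letters CAGGGGGC, part of a CTCF motif, stood in the Maz and Yy1 promoters (2.87% of all promoters), CCCAGNATG, part of the ZFP143 motif, in Med11 and Med4 (2.04% of all), and AAGATGGC, the YY1 core, in Med31 (2.75% of all). All 4 motifs were searched on both strands, and overlapping matches were each counted. The median GC content of these promoters was 59.5%, against 52.7% over all promoters. A match describes letters in this window and not a bound site.

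Coverage of the 46 genes by listed baits was uneven. No bait of the loop lists lay on Rad21, Wapl, Yy1, Ldb1, Med6, Ccnc, Med20, Med31, Med21 or Med15. The capture design was not used here, so a gene that was captured without any listed loop cannot be told apart from a gene that was not captured. These 10 genes have no value here, among them the kleisin subunit that closes the cohesin ring (Rad21) and the cyclin partner of CDK8 (Ccnc). Cdk8 itself, Med30 and Med4 had a bait but no listed same-chromosome loop in any library. The other 33 genes had at least 1 loop. Of the 43 baits, 26 overlapped a matched RefSeq promoter of their own gene and carried 96 loops. A further 7 lay on an end of the gene without such a match, with 19 loops. Another 5 lay inside the gene with 11 loops, and 5 within 2 kb outside it with 16 loops. No promoter was matched for Stag2, Med8, Med24 and Med30, whose baits lie on an end of the gene and may hold its promoter. The 26 are therefore a lower bound. An end of a further protein-coding gene lay on 14 of the baits, which carried 77 of the 142 loops. The Med16 bait was shared with R3hdm4, the Mau2 bait with Sugp1, the second Med12 bait with Nlgn3 and the Med19 bait with Tmx2. Contacts of these baits cannot be told apart between the genes that share them.

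**Figure D1:**
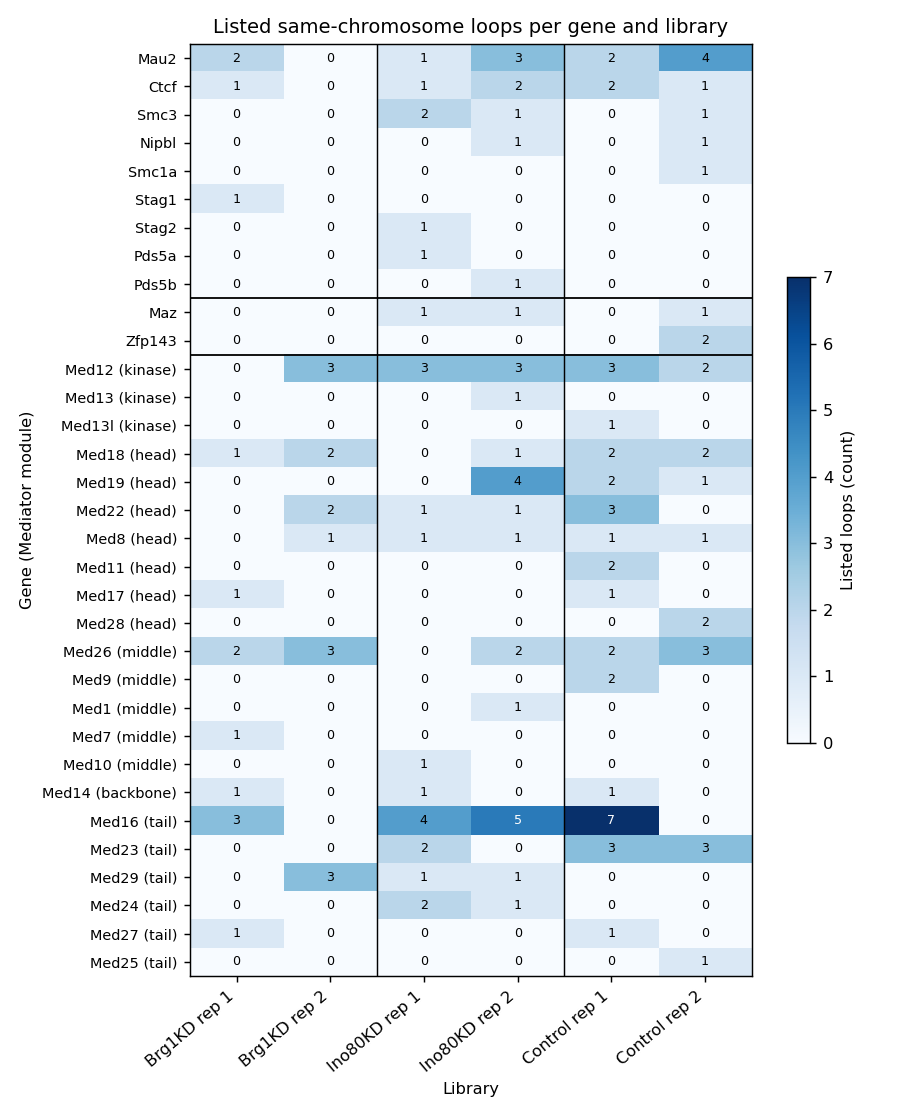
Listed same-chromosome loops (count, colour scale and number in each cell) of the 33 genes with at least 1 loop, by gene (rows, Mediator module in brackets) and library (columns). Med16 has 7 loops in Control replicate 1 and 0 in Control replicate 2, and no CTCF or cohesin gene has a loop in Brg1KD replicate 2.

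These genes had fewer loops than is usual for baited genes. The 36 baited genes had a median of 2 listed loops over the 6 libraries and a mean of 3.94, against a median of 3 and a mean of 6.83 over all 15432 baited protein-coding genes. At least 1 loop was listed for 91.7% of them, against 92.2% of all baited genes, and 10 or more loops for 11.1%, against 19.3%. The shares with at least 1 loop are high by construction, since baits were known only from listed contacts, and they do not compare the genes. The 4 genes with 10 or more were Med16 (19 loops), Med12 (14), Mau2 (12) and Med26 (12), and 7.81% of all baited protein-coding genes had as many loops as Med16 or more. The 9 baited CTCF and cohesin genes averaged 3.33 loops and the 25 baited Mediator genes 4.28, a ratio of 0.779. That ratio was 1.11 and 0 in the Brg1KD libraries, 1.04 and 1.06 in the Ino80KD libraries and 0.358 and 1.48 in the Control libraries, so the order of the classes differed between libraries of one group.

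Counted once per library that listed them, the loops of these genes were shorter than all loops counted in the same way. Their median span was 171 kb, against 250 kb over all loops, and 20.4% of them spanned less than 50 kb, against 12.7%. The median was 146 kb for CTCF and cohesin genes and 200 kb for Mediator genes. All 10 listings under 50 kb at CTCF and cohesin genes were repeats of the Ctcf and the Mau2 loop within the own gene, listed in 5 libraries each. At Med18, 2 short loops were listed in 4 libraries each. The share under 50 kb thus rests in part on few loops listed repeatedly. Scores under 7 were given to 91.5% of the loops at these genes and to 74.8% of all loops, a difference of the same direction in each library, and the highest score was 9.46, at Med12. The median score at the genes was below that of all loops in 5 libraries and above it in Brg1KD replicate 2 (5.97 against 5.91). Within each library the median span at the genes was below that of all loops, between 163 and 247 kb against 221 and 282 kb. A second bait was the other end of 9 of the 142 loops (6.34%), against 4.07% of all loops. Between the baits of 2 of these genes, or from 1 of them to a bait of the 43-gene pathway list, 0 loops were listed. The Med28 bait did contact an unbaited segment over Ncapg, a gene of that list, and Lcorl in Control replicate 2.

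A loop of 1 library was found in the other library of its group, with both ends within 5 kb, for 63 of the 142 loops (44.4%). The distance was taken between the edges of segments, so adjoining segments were counted as a match. Over all loops this share was between 45.2% and 51.7% in the 6 libraries. The share at these genes was 42.9% and 35.7% in the Brg1KD libraries, 47.8% and 33.3% in the Ino80KD libraries and 48.6% and 53.8% in the Control libraries. The absence of a loop from a single list therefore does not show a loss of contact. When neighbouring other ends of a bait were joined, the loops formed 72 contact regions, of which 44 were listed in 1 library and 6 in 5 libraries.

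Among the CTCF and cohesin genes, the loops that recurred most with identical ends lay inside Ctcf and Mau2 themselves. With both ends within 5 kb, the Mau2 loops toward Slc25a42 and toward Sugp2 and a Smc3 loop also had counterparts in 5 libraries. Such a counterpart can belong to a neighbouring bait. The Ctcf bait (chr8:105635459-105637970) contacted a segment of the Ctcf gene body (chr8:105640001-105660000), whose midpoint lies 13.3 kb from that of the bait. Its score was 5.87 in Brg1KD replicate 1, 5.30 and 5.45 in the Ino80KD libraries and 5.99 and 5.46 in the Control libraries, and it was not listed in Brg1KD replicate 2. Ctcf had 1 and 0 loops in the Brg1KD libraries, 1 and 2 in the Ino80KD libraries and 2 and 1 in the Control libraries. The groups overlapped.

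Mau2, which encodes the partner of the cohesin loader NIPBL, had 2 and 0 loops in the Brg1KD libraries, 1 and 3 in the Ino80KD libraries and 2 and 4 in the Control libraries. Its most frequent loop joined the promoter bait to the Mau2 gene body 12.7 kb away (chr8:70020001-70040000). That loop scored 7.03 in Brg1KD replicate 1, 6.54 and 8.69 in the Ino80KD libraries and 5.67 and 6.83 in the Control libraries, and again was not listed in Brg1KD replicate 2. Segments over Gatad2a, 113 to 131 kb away, were contacted in Ino80KD replicate 2 and in both Control libraries. The groups overlapped for Mau2 as well, and all of these counts belong equally to Sugp1.

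Smc3, an ATPase of the cohesin ring, had 0 loops in both Brg1KD libraries, 2 and 1 in the Ino80KD libraries and 0 and 1 in the Control libraries. Its bait contacted chr19:53400001-53420000, 190 kb away, in both Ino80KD libraries (scores 6.28 and 7.35) and in Control replicate 2 (6.12). The adjoining Smc3 loop to chr19:53391694-53400000 had a counterpart with both ends within 5 kb in 5 libraries, hence in at least 1 Brg1KD library. The count of 0 for Brg1KD therefore holds for the Smc3 bait alone. The other ring and regulatory genes had 1 or 2 loops each. Nipbl, the loader, had 1 loop in Ino80KD replicate 2 and 1 in Control replicate 2, both to a segment 146 kb from a bait inside the gene. Stag1 had its single loop in Brg1KD replicate 1, Stag2 and Pds5a in Ino80KD replicate 1, Pds5b in Ino80KD replicate 2 and Smc1a in Control replicate 2. Of the other looping factors, the zinc finger gene Zfp143 had 2 loops, both in Control replicate 2 and both toward Ipo7, and Maz had 1 loop in each Ino80KD library and 1 in Control replicate 2.

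Among the Mediator genes, most loops lay at the tail (38) and head (33) modules, and 19 of the 38 tail loops came from the Med16 bait alone. The 6 baited tail genes carried 4 and 3 loops in the Brg1KD libraries, 9 and 7 in the Ino80KD libraries and 11 and 4 in the Control libraries. The 8 baited head genes carried 2 and 5, 2 and 7, and 11 and 6 loops in Brg1KD, Ino80KD and Control. The kinase module (4 baited genes) had 16 loops in all, the middle module (6 baited genes) 17 and the backbone gene Med14 3.

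Med16, a tail subunit, had 3 and 0 loops in the Brg1KD libraries, 4 and 5 in the Ino80KD libraries and 7 and 0 in the Control libraries. The Control libraries were thus at opposite ends of the range, and the comparison of either depletion with Control rests on which Control library is used. The Med16 bait (chr10:79907582-79911595) contacted Palm, 99.6 kb away, in 4 libraries with scores of 5.01 in Brg1KD replicate 1, 7.49 and 5.64 in the Ino80KD libraries and 5.95 in Control replicate 1. Further contacts reached Arid3a, 40.4 kb away, in both Ino80KD libraries and Control replicate 1, and Efna2, 281 kb away, in Ino80KD replicate 2 and Control replicate 1. Misp, Sbno2, Stk11 and Cirbp were each reached in at most 3 libraries.

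Med12, the kinase-module subunit that activates CDK8, had 0 and 3 loops in the Brg1KD libraries, 3 in each Ino80KD library and 3 and 2 in the Control libraries. Baits at both ends of the gene contacted the same segment over Snx12 (chrX:101120001-101140000). From the promoter bait this loop scored 5.08 and 7.14 in the Ino80KD libraries and 8.56 and 6.31 in the Control libraries, and from the bait at the far end 6.09 in Brg1KD replicate 2, 7.66 and 9.46 in the Ino80KD libraries and 5.37 and 5.57 in the Control libraries. These were the loops of the 46 genes nearest to being listed throughout: the 2 promoter-bait loops to this region had a counterpart with both ends within 5 kb in all 6 libraries. In Brg1KD replicate 1 that counterpart belonged to a bait on the neighbouring gene Il2rg, with a score of 5.03, and no loop of these genes was listed with identical ends in all 6 libraries.

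Med26, a middle subunit that recruits elongation factors, had 2 and 3 loops in the Brg1KD libraries, 0 and 2 in the Ino80KD libraries and 2 and 3 in the Control libraries. Both of its baits contacted chr8:72260001-72280000, a segment without a protein-coding gene, 223 and 279 kb away. Only the bait at chr8:72491478-72493673 also reached the adjoining segment over Ap1m1, 242 kb away. The head genes Med18, Med19, Med22 and Med8 each had a distinct pattern. Med18 had 1 and 2 loops in the Brg1KD libraries, 0 and 1 in the Ino80KD libraries and 2 in each Control library, all within 26.2 kb of its bait. Med8 had a single loop, to Cfap57 at 161 kb, which was listed everywhere except in Brg1KD replicate 1, with scores of 7.07 in Brg1KD replicate 2, 5.45 and 6.46 in the Ino80KD libraries and 6.60 and 5.53 in the Control libraries. Med22 had 0 and 2 loops in the Brg1KD libraries, 1 in each Ino80KD library and 3 and 0 in the Control libraries.

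**Figure D2:**
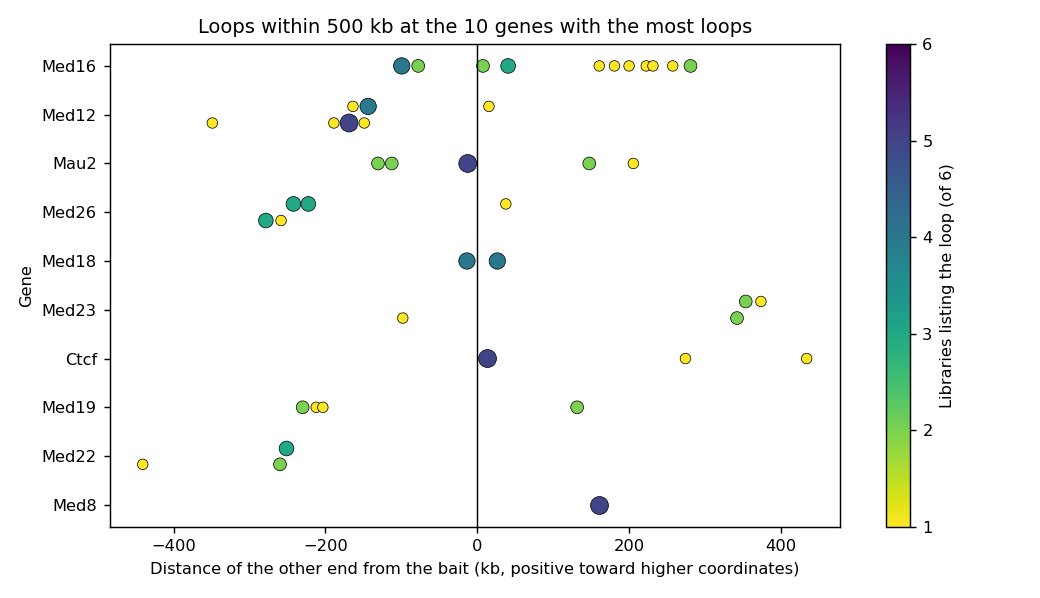
Distance of the other end from the bait (kb, positive toward higher coordinates) for every distinct loop within 500 kb at the 10 genes with the most loops, 1 row per gene with a second bait offset downward; colour and size give the number of libraries, of 6, that listed the loop. The loops listed in 5 libraries are those of Ctcf and Mau2 within their own genes, of Med12 toward Snx12 and of Med8 toward Cfap57.

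Med23 and Med19 were the genes whose loops were fewer in both Brg1KD libraries than in both Control libraries. Med23, a tail subunit, had 0 loops in each Brg1KD library, 2 and 0 in the Ino80KD libraries and 3 in each Control library. Its 2 baits, both inside the gene, contacted Akap7 (chr10:25220001-25240000), 342 and 353 kb away, in both Control libraries alone, with scores of 6.14 and 5.26 from the first bait and 6.56 and 7.85 from the second. Both baits reached the same segment, so these loops are not independent. Med19, a head subunit, had 0 loops in each Brg1KD library, 0 and 4 in the Ino80KD libraries and 2 and 1 in the Control libraries. Its main contact lay over Tfpi, 203 to 230 kb away.

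These 2 of 36 baited genes are 5.56%, against 8.42% of all baited protein-coding genes with both Brg1KD libraries lower. None of the 36 was higher in both Brg1KD libraries, against 4.25% of all baited genes. Set against Control, Ino80KD was higher in both libraries at Med24 and Med29, also 5.56% of the 36 and against 6.05% of all, and lower at Med18 and Med23, against 6.23% of all. Med24, a tail subunit, had 0 loops in each Brg1KD library, 2 and 1 in the Ino80KD libraries and 0 in each Control library, at 3 different segments. Med29, also of the tail, had 0 and 3 loops in the Brg1KD libraries, 1 in each Ino80KD library, both toward Acp7, and 0 in each Control library. Ino80KD was higher than Brg1KD in both libraries at Smc3, Maz, Med16 and Med24, 4 of 36 or 11.1%, against 8.84% of all baited genes, and lower at none, against 4.73%. These shares lie near those of all genes, and the comparisons with Control share its libraries.

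Summed over the 46 genes, Brg1KD libraries listed fewer loops than Control libraries. The genes had 14 loops in each Brg1KD library, 23 and 30 in the Ino80KD libraries and 35 and 26 in the Control libraries. Per 1000 same-chromosome loops of the library this was 1.14 and 1.07 in Brg1KD, 1.56 and 2.12 in Ino80KD, and 2.27 and 1.80 in Control. Brg1KD averaged 1.11 ± 0.0444 and Control 2.04 ± 0.336 (SD, n = 2 each), a ratio of 0.543 with no overlap, and the ratio was 0.50 within batch 1. With batch fitted beside group it was 0.456, a value in which Control replicate 1 alone stands for Control, since Control replicate 2 is the single library of its batch. Ino80KD averaged 1.84 ± 0.394 (SD, n = 2) and overlapped Control, with a ratio of 0.902. Ino80KD set against Brg1KD gave a ratio of 1.66 with no overlap, 1.37 within batch 1 and 1.97 within batch 3. The 95% Wilson interval of a single library ran from 0.677 to 1.91 per 1000 in Brg1KD replicate 1 and from 1.23 to 2.64 in Control replicate 2; such intervals cover counting error only, and loops of 1 bait are not independent.

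**Figure D3:**
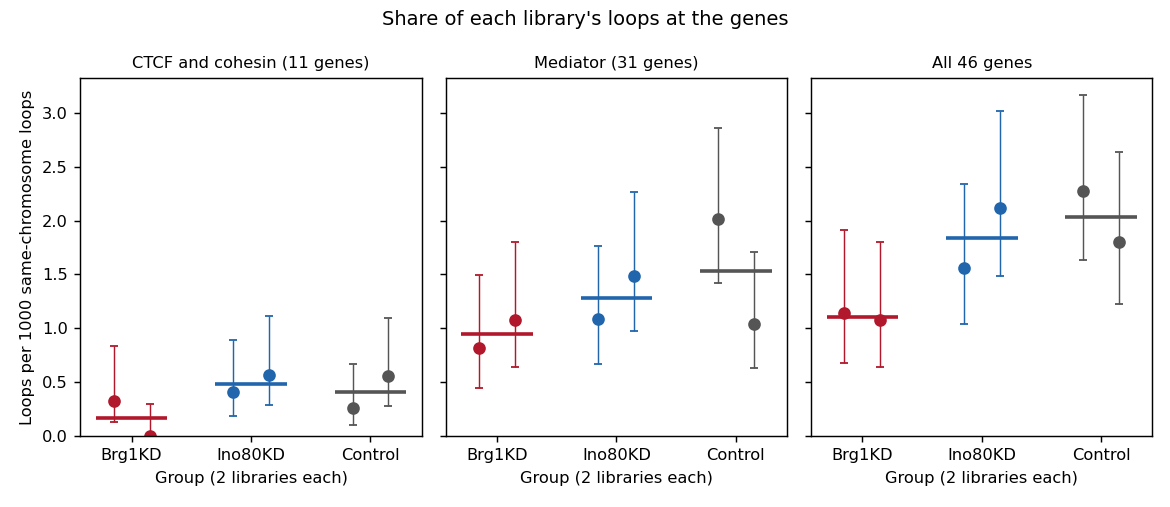
Loops at the CTCF and cohesin genes, the Mediator genes and all 46 genes, per 1000 same-chromosome loops of each library (points, bars 95% Wilson intervals of counting error, lines group means, 2 libraries a group). Over all 46 genes both Brg1KD points, 1.14 and 1.07, lie below both Control points, 2.27 and 1.80, and the Ino80KD points overlap Control.

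The classes differed in which library set their values. The CTCF and cohesin genes had 4 and 0 loops in the Brg1KD libraries, 6 and 8 in the Ino80KD libraries and 4 and 8 in the Control libraries. Per 1000 loops this averaged 0.162 ± 0.230 in Brg1KD, 0.486 ± 0.112 in Ino80KD and 0.407 ± 0.208 in Control (SD, n = 2 each). Brg1KD over Control was 0.399, but Brg1KD replicate 1 overlapped Control and within batch 1 the ratio was 1.25, so the lower mean rests on Brg1KD replicate 2, where 0 loops were listed (3 counts of the library's total would be 0.230 per 1000, and the 95% Wilson interval reaches 0.295). Ino80KD over Control was 1.19 with overlap, and Ino80KD over Brg1KD was 2.99 without overlap, 1.49 without Brg1KD replicate 2 and 1.25 within batch 1.

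The Mediator genes had 10 and 14 loops in the Brg1KD libraries, 16 and 21 in the Ino80KD libraries and 31 and 15 in the Control libraries. Per 1000 loops this averaged 0.943 ± 0.185 in Brg1KD, 1.28 ± 0.281 in Ino80KD and 1.53 ± 0.691 in Control (SD, n = 2 each). Brg1KD over Control was 0.618 and 0.403 within batch 1; the raw counts did not overlap, but per 1000 loops Brg1KD replicate 2 (1.07) and Control replicate 2 (1.04) did. Ino80KD over Control was 0.841 with overlap and 1.24 without Control replicate 1. Ino80KD over Brg1KD was 1.36 without overlap, 1.34 within batch 1 and 1.38 within batch 3, and it was 0.872 when only baits with no end of another protein-coding gene were counted.

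The authors' own comparison of contact signal gave small differences at these genes. It lists a log2 fold change for pairs of a bait and a contacted region, many of them overlapping. Its direction was taken from the lists: in the authors' deposited table of Brg1KD against Control, 81.2% of rows listed only in both Brg1KD libraries were above 0 and 18.4% of those listed only in both Control libraries, so that values above 0 mean more contact after depletion. The same check gave 84.8% and 18.1% in the authors' deposited table for Ino80KD. No row passed an adjusted p of 0.05 among the 33243 rows for Brg1KD and the 34774 rows for Ino80KD in the authors' deposited tables, where 1.20% and 1.29% had an unadjusted p under 0.05; every adjusted p rounded to 1.00. Both tables use the same Control libraries.

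In the authors' deposited table of Brg1KD against Control, 60 rows belonged to 26 of the genes, and 3 rows were lower at an unadjusted p under 0.05, against 0.827% of all rows. None was higher, against 0.373% of all. These 3 rows, in the authors' deposited table, were Zfp143 toward Ipo7 with a log2 fold change of -0.49 (SE 0.234, p = 0.0346), an overlapping Zfp143 row at -0.47 (SE 0.237, p = 0.0451) and Med19 toward Calcrl and Tfpi at -0.71 (SE 0.356, p = 0.0471). Within this comparison, Zfp143 and Med19 had listed loops in Control libraries alone. Their rows thus entered through Control, and the count of lower rows does not show a shift. Maz also entered through Control but was above 0. The rows with the smallest p above 0 in the authors' deposited table were Med27 toward its own gene and Rapgef1 at 0.31 (p = 0.112), Med7 at 0.77 (p = 0.200) and Maz at 0.29 (p = 0.232). For Med23 toward Akap7, a contact listed in Control alone, the authors' deposited table gave -0.40 (SE 0.322) and -0.41 (SE 0.335) from the first bait. From the second bait it gave -0.32 (SE 0.353).

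In the authors' deposited table of Ino80KD against Control, 69 rows belonged to 30 of the genes. There, 1 row was higher at an unadjusted p under 0.05, against 0.912% of all rows, and none was lower, against 0.382%. That row of the authors' deposited table was Med16 toward Kiss1r, Arid3a, Wdr18 and Grin3b, with a log2 fold change of 0.45 (SE 0.206, p = 0.0297). The next rows above 0 in the authors' deposited table were a nearer Med16 row at 0.36 (p = 0.0839) and Smc3 at 0.61 (p = 0.124). The rows with the smallest p below 0 in the authors' deposited table were Med23 toward Akap7 at -0.51 (p = 0.152), Med22 at -0.47 (p = 0.163) and Zfp143 toward Ipo7 at -0.28 (p = 0.243).

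Gene by gene, rows of the authors' deposited tables were combined into a mean weighted by 1 over the squared standard error. In the authors' deposited table for Brg1KD the median over genes was -0.06 for CTCF and cohesin genes (5 of 6 below 0), -0.10 for Mediator genes (11 of 18 below 0) and -0.02 over all protein-coding genes, 53.7% of which were below 0. In the authors' deposited table for Ino80KD the median was 0.12 for CTCF and cohesin genes (7 of 7 above 0), 0.09 for Mediator genes (13 of 21 above 0) and 0.00 over all protein-coding genes, 50.7% of which were above 0. Stag2, Pds5a, Pds5b, Med1, Med10, Med13 and Med24 had loops in Ino80KD libraries alone and rows in this comparison alone. Likewise Stag1 and Med7, above 0 for Brg1KD, had loops in Brg1KD alone. Smc1a, Zfp143, Med11, Med28, Med13l and Med25, below 0 for Brg1KD, had loops in Control alone, as did Med9, which was above 0. Nipbl, Smc3, Med19 and Med23, below 0 for Brg1KD, and Maz, above 0, also had no loop in a Brg1KD library. Such genes entered a comparison only through the group that listed their loops, which favours higher values in that group. These counts therefore do not show a shift of the class. No p is given for these medians, since the genes were chosen with results known. For the Ctcf gene-body contact, the authors' deposited tables gave -0.05 (SE 0.192) after Brg1 depletion and 0.19 (SE 0.183) after Ino80 depletion. 

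**Figure D4:**
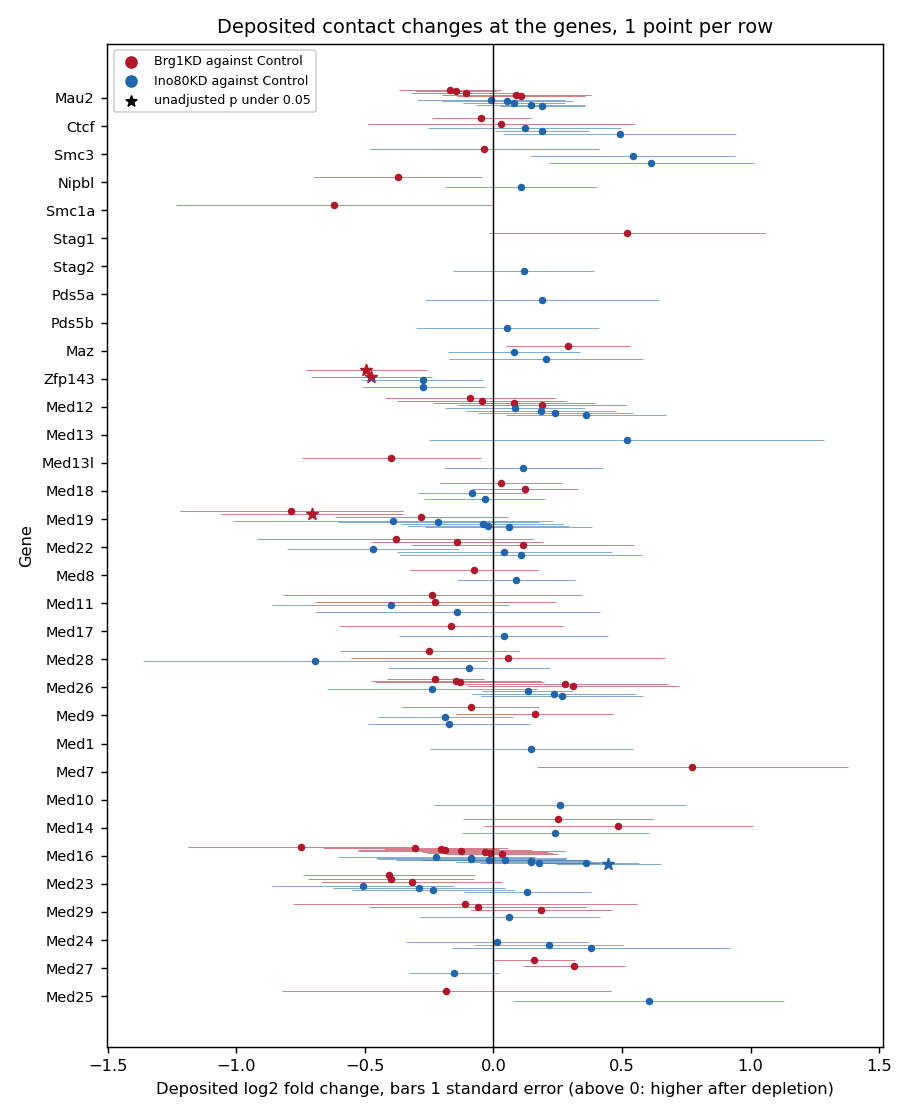
Log2 fold changes of the authors' deposited tables at these genes, 1 point per row with bars of 1 standard error, red for Brg1KD against Control and blue for Ino80KD against Control; stars mark an unadjusted p under 0.05. The stars are 2 Zfp143 rows and 1 Med19 row below 0 after Brg1 depletion and 1 Med16 row above 0 after Ino80 depletion, and no row passes after adjustment.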

How the data were processed

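Lists of loops with their scores, 1 per library, and 2 tables of contact differences were the deposited files used here. The loop score was given by the authors per listed loop, from 5 up, and was used only within its own list. The mean normalised signal, the log2 fold change with its standard error and the p-values were computed by the authors from the libraries of each comparison, per the file headers. Genome build mm10 and bedtools are named in the submitters' processing notes; the loop caller and the test behind the tables are not given in the sources used here. The deposited files give no read counts per loop, so the depth behind a loop is unknown and no count test was made.

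From these, loops at each gene were counted with Python 3.11.15, pandas 2.3.3 and numpy 2.4.6, per 1000 same-chromosome loops of the library. A loop was matched between libraries when the segments at both ends overlapped or lay within 5 kb of each other. Adjoining segments therefore matched, although their midpoints can lie farther apart than 5 kb. A match could involve a neighbouring bait. Gene positions and promoters were RefSeq's (GRCm38.p6). The matching of loops, the assignment of baits to genes and the weighted mean were tested on simulated data, and the counting of loops was not. The genes and lists, including the 43-gene pathway list, were chosen with earlier results of these data known. Genes named with values were the 10 with the most loops, those with a loop in all 6 libraries, the 3 rows of smallest p in each direction of each table and genes that differed from Control by 6 or more loops without overlap; others named with counts were chosen after their values were seen. Alternatives covered the window around the gene, the score, the denominator, the bait position, each replicate left out and batch.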

Additional observations from a re-analysis of the deposited data

How the results depend on the processing

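Of 128 alternative values of the 9 ratios of loops per 1000, 18 moved the ratio by over 1.5 times and 9 turned it to the other side of 1; with 2 libraries a group the spread between libraries is too wide to call the other values stable. For the CTCF and cohesin genes, Brg1KD over Control turned to 1.25 within batch 1, and leaving out 1 replicate gave 0 to 0.799; Ino80KD over Brg1KD was 1.49 to 3.48 with 1 replicate left out and 1.58 with scores of 7 or more; Ino80KD over Control ranged from 0.877 (without Control replicate 1) to 1.87 (without Control replicate 2), was 1.00 without Ino80KD replicate 2 and became 2.05 with only baits that hold no end of another protein-coding gene, an alternative chosen after seeing the data, as was leaving out Med16 from the comparison of classes (0.909). For the Mediator genes, Ino80KD over Control became 1.38 with scores of 7 or more and ranged from 0.637 to 1.24 with 1 replicate left out; Ino80KD over Brg1KD became 3.31 with scores of 7 or more and 0.872 with unshared baits. For all 46 genes, Brg1KD over Control became 0.701 with a 10 kb window and 0.637 with scores of 7 or more, and stayed between 0.486 and 0.615 with 1 replicate left out; Ino80KD over Control became 1.53 with scores of 7 or more and 0.765 to 1.04 with 1 replicate left out; Ino80KD over Brg1KD became 2.40 with scores of 7 or more. The median log2 fold change at Mediator genes for Ino80KD in the authors' deposited table was -0.0026 in rows above the median signal. Loops listed in all 6 libraries numbered 0 with identical ends and 4 within 10 kb, and 29.6% of loops were found in the other library with identical ends. Scores under 7 were given to 99 of the 107 loops at Mediator genes and to 27 of the 30 at CTCF and cohesin genes. Over all 46 genes they were given to 130 of 142. The values with scores of 7 or more therefore rest on few loops. The cause of these shifts was not tested. With batch fitted, where Control replicate 2 is alone in its batch and Control replicate 1 alone stands for Control, Mediator genes gave 0.40 for Brg1KD over Control and 0.543 for Ino80KD over Control, and all 46 genes gave 0.456 and 0.750. With replicate number as a block, added after seeing the data, Mediator genes gave 0.646 for Brg1KD over Control, 0.877 for Ino80KD over Control and 1.36 for Ino80KD over Brg1KD, and all 46 genes gave 0.546, 0.898 and 1.64; same-numbered libraries share only a number where their batches differ. For the CTCF and cohesin genes neither fit could be made, since a library was at 0, nor could Ino80KD over Brg1KD without Brg1KD replicate 1 or within batch 3, or the comparisons with Control at scores of 7 or more.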

Other observations

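Genes that work beside CTCF, cohesin and Mediator were looked at as a list of 43 (other cohesin and condensin genes, Mediator paralogs, bromodomain and polymerase genes and zinc finger proteins), of which 31 had a bait and 29 a loop, 222 loops in all. They had 27 and 32 loops in the Brg1KD libraries, 32 and 47 in the Ino80KD libraries and 39 and 45 in the Control libraries. In the authors' deposited table of Brg1KD against Control, 7 of their 81 rows were lower at an unadjusted p under 0.05, against 0.827% of all rows, and 0 were higher; the rows were those of Cdca5 (sororin, which protects cohesin on sister chromatids), Ncapg (a condensin subunit), Polr2b, Patz1 and Ssbp2. In the authors' deposited table of Ino80KD against Control, 0 of 86 rows were lower, against 0.382% of all rows, and 1 was higher, at Stag3, against 0.912% of all. None passed after adjustment. Cdca5 and Ncapg each gave 2 of the 7 lower rows. Rows of 1 gene are not independent, and the list was chosen with earlier results known, so the 7 rows do not show an excess. Vezf1 had the most loops of the list, with 7 and 9 in the Brg1KD libraries, 9 and 8 in the Ino80KD libraries and 8 in each Control library, so its groups overlapped.

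Loops between chromosomes at the 46 genes numbered 14 and 7 in the Brg1KD libraries, 8 and 9 in the Ino80KD libraries and 9 and 7 in the Control libraries, or 2.66 and 1.97, 2.07 and 2.57, and 2.46 and 1.86 per 1000 interchromosomal loops of Brg1KD, Ino80KD and Control.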
